A study of Mus musculus with 6 samples.

Results

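Desmosomes are the spot-like junctions that hold neighbouring epithelial cells together and tie their keratin filaments into one network. In each junction the desmosomal cadherins, the desmogleins and desmocollins, bind across the gap between cells, plakoglobin and the plakophilins bind the cadherin tails, and desmoplakin links these armadillo proteins to keratin. In stratified squamous epithelia such as the lining of the mouse forestomach, the cadherin and plakophilin forms change from the basal layer to the surface, whereas simple epithelia mainly use Dsg2, Dsc2 and Pkp2.

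The 10 desmosome components described here were taken by gene name from the annotation in the scanner files: Dsp, Jup, Pkp1, Pkp2, Pkp3, Dsg2, Dsg3, Dsc2, Dsc3 and Perp. They are measured by 19 of the 41174 probes, each printed as 1 spot, and all 10 passed the filter on dim probes. Epithelial sheets of the forestomach came from 3 control mice carrying K5-CreER, a tamoxifen-activated recombinase driven by the keratin 5 promoter of basal cells, and from 3 mutant mice carrying K5-CreER together with Rosa26Sox2/Sox2, a Sox2 transgene on both Rosa26 alleles that the recombinase switches on. Both groups received 2 tamoxifen doses at 7 weeks, were 12 weeks old per the labels and had a mixed 129/Sv and C57/BL6 background. RNA of each sample was labelled with Cy5 and hybridised together with Cy3-labelled Universal Mouse Reference RNA, a mixture from 11 mouse cell lines that was the same on every array. The recombinase acts in K5-expressing cells, while the RNA comes from whole sheets, in which fewer cells of a type and less RNA per cell cannot be told apart.

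Probes were well above background for 62.5% to 76.1% of the array, lowest on control 3, where the median signal was 4.81 times background against 12.1 to 13.1 times on the other 5 arrays. The 3 mutants lay together on slide 3 and the controls on other slides (1 and 2 on slide 1, control 3 alone on slide 2, scanned on another day). No slide held both genotypes, and the effect of slide and that of genotype cannot be told apart. Controls 1 and 2 were nearly alike, as were mutants 2 and 3: the scaled median absolute difference between their log2 ratios was 0.156 and 0.104, against 0.326 to 0.732 for the other pairs of arrays. Control 3 also stood apart in its cell type markers. Its 17 glandular stomach markers had a median log2 ratio of 0.33 against 3.91 and 4.19 in the other controls and 2.51 to 3.92 in the mutants, and 6 of them were not well above background there. Its median over 10 fibroblast, muscle and vessel markers was -1.59 against 0.15 and 0.19 in the other controls and -1.31, 0.18 and 0.10 in mutants 1 to 3, so that mutant 1 was nearly as low, and over 10 squamous markers 4.96 against 3.74 and 3.77 in the other controls and 3.04 to 3.56 in mutants. The Sox2 probe, which lies beyond the coding part and does not check the transgene, read 6.24 ± 0.15 in controls and 5.82 ± 0.14 in mutants on the log2 ratio scale (SD, n = 3 each), a difference that did not pass the test (adjusted p = 0.142, limma).

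Desmoplakin (Dsp) is measured by 4 probes. The sequences of the 3 probes in the coding part are shown because these probes lie at different points along one transcript. Their ratio differences between the groups, given below, were not of equal size. None of them passed the test, and the probes were not tested against each other. They start at bases 5665, 6803 and 8879 of the transcript, and are placed by the files (build mm9, plus strand) at chr13:38285480-38286579, chr13:38287658-38287717 and chr13:38289734-38289793. The first covers a span of 1100 bases with 60 bases of probe.
A_51_P201884: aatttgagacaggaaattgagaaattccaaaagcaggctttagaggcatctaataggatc
A_52_P549815: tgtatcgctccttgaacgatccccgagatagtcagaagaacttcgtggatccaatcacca
A_52_P242544: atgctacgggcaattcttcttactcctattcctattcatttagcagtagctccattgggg

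The desmosome genes were well represented in both groups, and by the ratio to the reference none of the 10 passed the test between control and mutant, with intervals too wide for Pkp2, Dsg2 and Perp to show that they did not differ. In controls 9 of the 10 were above the reference RNA in the mean, from 7.25-fold for Dsg3 to 115-fold for Dsp, and Pkp2 was below it. No fold is given for Dsc3, whose reference signal was not well above background on any control. Since each probe has its own brightness and the reference its own content, these ratios do not order the genes by level. In the limma test, 0 of the 10 members passed an adjusted p of 0.05, where 587 of 20274 genes (2.9%) passed, and 0 members against 4848 genes had an unadjusted p under 0.05. Of the 10 differences 6 were negative and their median was -0.10 on the log2 scale, against 0.01 over all genes tested. The exact permutation test over the 6 arrays cannot go below p = 0.1 with 3 against 3. The labels call the arrays biological replicates but do not say how mice were kept or whether RNA was pooled, and the spread behind each p-value may be partly technical.

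**Figure D1:**
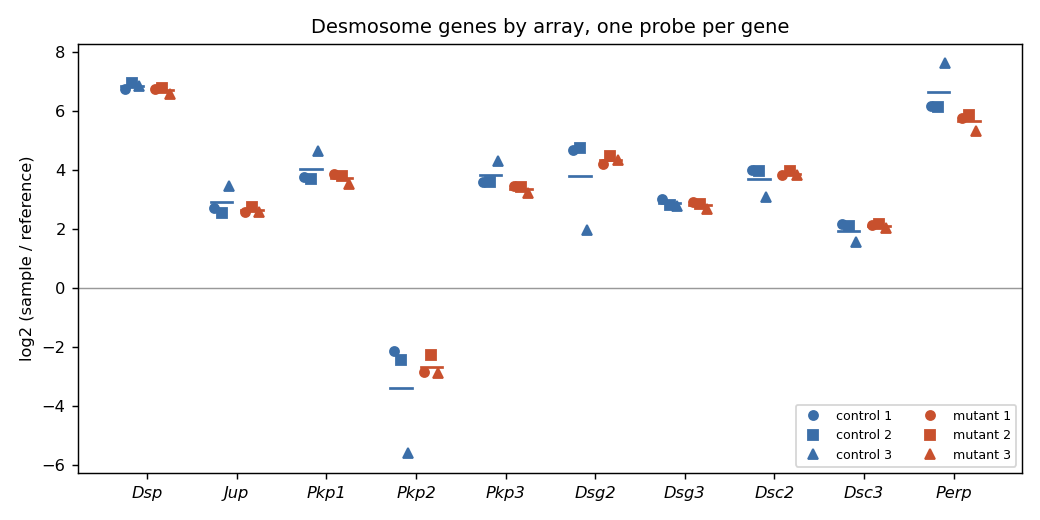
Log2 ratio of sample over reference for the 10 desmosome genes (x axis), one point per array, with controls in blue, mutants in orange, a symbol per replicate number and a bar at each group mean. Control 3 lies below the other controls for Pkp2 and Dsg2 and above them for Perp, Pkp1, Jup and Pkp3.

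Desmoplakin, the link to keratin, varied least between arrays of the plaque genes. By its brightest probe the log2 ratio was 6.75, 6.95 and 6.83 in controls 1 to 3 and 6.74, 6.77 and 6.56 in mutants 1 to 3. The groups overlapped, and the difference was -0.15 ± 0.12 (SE, 95% interval -0.45 to 0.14, adjusted p = 0.47, limma). The 3 probes whose sequences are given above differed by 0.02, -0.01 and -0.52 in order along the transcript. For the third of them, A_52_P242544, every mutant was below every control (3.36, 3.30 and 3.76 against 3.06, 2.98 and 2.83), but the test was not passed (adjusted p = 0.126, limma over probes, where 2.72% of probes passed). Its sample signal differed by 0.08 log2 units and its reference signal by 0.60, with the groups apart only in the reference channel.

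Plakoglobin (Jup), shared by desmosomes and adherens junctions, read 2.71, 2.54 and 3.45 in controls and 2.57, 2.75 and 2.57 in mutants. Only control 3 stood out, above all 5 other arrays, and the difference of -0.27 ± 0.25 did not pass (adjusted p = 0.529, limma); it was 0.00 without control 3. Pkp1, the plakophilin of differentiated squamous layers, was arranged in the same way, with 3.76, 3.70 and 4.63 against 3.86, 3.80 and 3.53. Its difference was -0.30 ± 0.27 (adjusted p = 0.533, limma) and also 0.00 without control 3.

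Pkp3, a plakophilin found in most epithelia, was one of 2 members whose groups did not overlap in the ratio, which held for 38% of all genes. Its values were 3.58, 3.60 and 4.31 in controls and 3.45, 3.41 and 3.20 in mutants. The mutants lay just below controls 1 and 2, and the difference was -0.48 ± 0.22 (95% interval -1.02 to 0.07, adjusted p = 0.252, limma; exact permutation p = 0.1). Without control 3 it was -0.24. In the sample channel alone Pkp3 differed by 0.01 ± 0.26 (adjusted p = 0.979, limma). In the reference channel alone it was higher in mutants by 0.33 ± 0.12 (adjusted p = 0.505, limma).

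Pkp2, the plakophilin of simple epithelia and heart, was the member with the widest spread between controls. Its log2 ratio was -2.14 and -2.43 in controls 1 and 2 but -5.61 in control 3, and -2.85, -2.29 and -2.87 in mutants. The sample signal on control 3 was 191 intensity units, against 3850 and 4614 on the other controls and 3038 to 4835 on mutants, while the reference signal was 15396 there and 17215 to 21544 elsewhere. The low value was thus in the sample channel. The difference between groups was 0.73 ± 0.90 with all arrays and -0.38 without control 3, so its sign rests on that array; neither passed (adjusted p = 0.649 and 0.302, limma).

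Among the cadherins, Dsg2 showed the same feature. Its brightest probe read 4.66, 4.72 and 1.96 in controls and 4.21, 4.48 and 4.33 in mutants, with control 3 far below every other array. The difference was 0.56 ± 0.73 (adjusted p = 0.669, limma) and -0.35 without control 3 (adjusted p = 0.121). The 3 dimmer Dsg2 probes differed by 0.53 to 0.65 with all arrays and by 0.01 to 0.12 without control 3, and 2 of them were not well above background on control 3. Without both control 3 and mutant 1, the array with the lowest glandular markers among mutants, Dsg2 was lower in mutants by 0.29 log2 units and passed (adjusted p = 0.0425), when 7637 genes (37.7%) passed in that fit of 2 against 2 near-identical arrays.

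**Figure D2:**
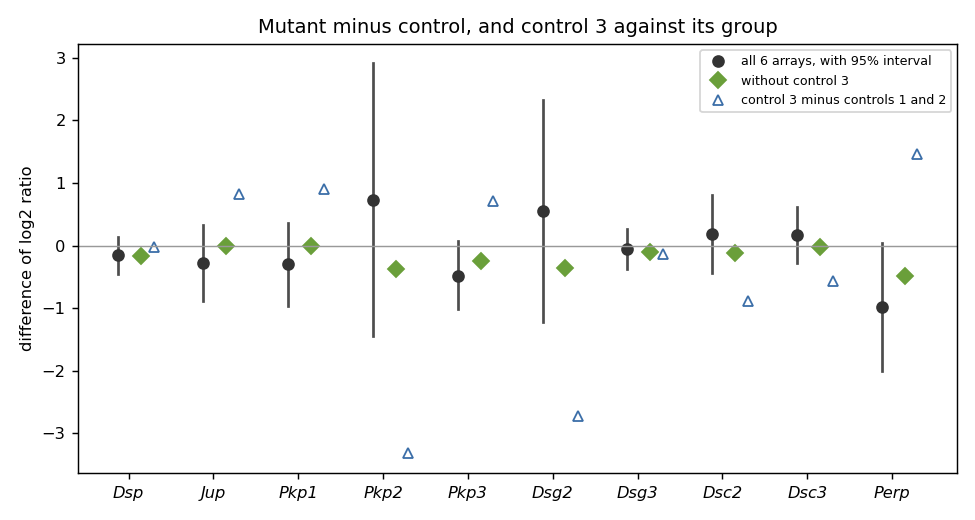
Difference of the log2 ratio, mutant minus control, for each gene with its 95% interval (black points and lines), the same without control 3 (green diamonds) and the distance of control 3 from the mean of controls 1 and 2 (open triangles). The intervals all include 0, and the points for Pkp2 and Dsg2 change sign without control 3.

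Control 3 differed from the mean of controls 1 and 2 by -3.32 log2 units for Pkp2, -2.73 for Dsg2, -0.89 for Dsc2 and -0.57 for Dsc3, and by 1.46 for Perp, 0.90 for Pkp1, 0.83 for Jup and 0.72 for Pkp3. Dsp (-0.02) and Dsg3 (-0.13) were about level. On the same array the glandular list was lower for 16 of 17 genes, with a median of -3.24, the fibroblast, muscle and vessel list for 10 of 10, with a median of -2.13, and the squamous list for 1 of 10, with a median of 0.58. The summed sample signal of the glandular list was 15400 intensity units on control 3, against 1990000 and 1860000 on the other controls and 338000, 1340000 and 947000 on mutants 1 to 3. The part of these markers in the values of the desmosome genes was not tested.

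**Figure D3:**
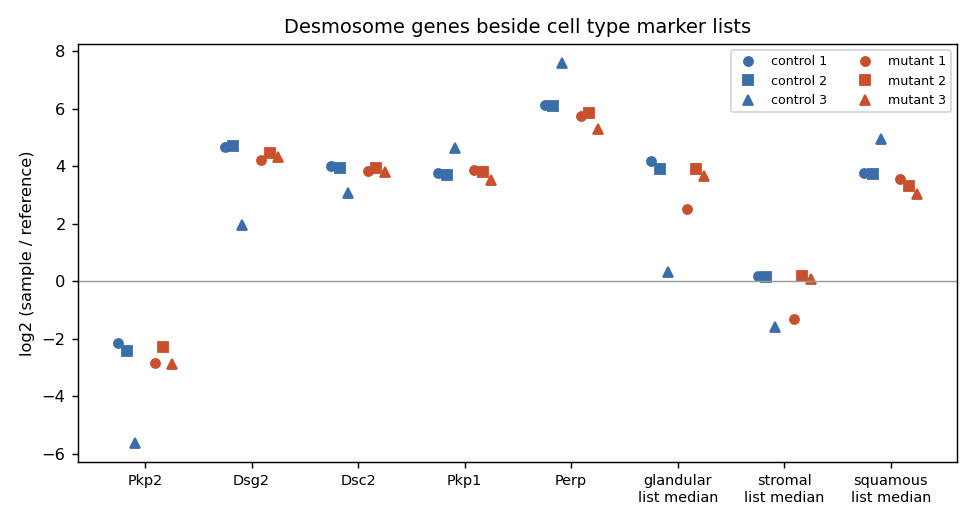
Log2 ratio of sample over reference on each array for Pkp2, Dsg2, Dsc2, Pkp1 and Perp, beside the median over the glandular, stromal (fibroblast, muscle and vessel) and squamous marker lists, with symbols by array. Control 3 is the lowest array for Pkp2, Dsg2, Dsc2 and the glandular and stromal medians, and the highest for Pkp1, Perp and the squamous median.

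Dsc3 and Dsg3 are the desmocollin and desmoglein of the lower squamous layers. Dsc3 read 2.17, 2.09 and 1.55 in controls and 2.14, 2.17 and 2.01 in mutants, again with control 3 lowest, and its difference was 0.17 ± 0.19 (adjusted p = 0.609, limma) or -0.02 without control 3. Its probe was dim: the sample signal was 187 to 454 intensity units, and the reference was well above background on 2 of the 6 arrays. Dsg3 read 3.02, 2.79 and 2.77 against 2.91, 2.84 and 2.66 by its brightest probe, a difference of -0.06 ± 0.13 (95% interval -0.38 to 0.27, adjusted p = 0.821, limma). The 2 groups of ratios overlapped.

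That even ratio came from signals that rose together in both channels. The sample signal of Dsg3 probe A_52_P259402 was 2420, 2946 and 1149 intensity units in controls and 13352, 10412 and 10883 in mutants. The reference signal of the same spots was 298, 354 and 222 in controls and 1701, 1366 and 1554 in mutants. Every mutant array was above every control in each channel, although the reference RNA was the same throughout. With each channel normalized by quantiles between arrays and tested alone, Dsg3 was higher in mutants 3.68-fold in the sample channel (log2 difference 1.88 ± 0.23, adjusted p = 0.0223, limma) and 3.97-fold in the reference channel (1.99 ± 0.14, adjusted p = 0.0255).

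Dsc2, the desmocollin of simple epithelia that squamous epithelia also make, showed the pattern more strongly. Its ratio at the brightest probe, A_51_P158037, was 4.0, 3.96 and 3.09 in controls and 3.83, 3.95 and 3.81 in mutants, a difference of 0.19 ± 0.26 (adjusted p = 0.689, limma). The sample signal was 3754, 4704 and 719 in controls and 52443, 31628 and 32257 in mutants. The reference signal was 229, 247 and 94.4 in controls and 3372, 1855 and 2005 in mutants. The lowest mutant was thus far above the highest control in both channels. Dsc2 was higher in mutants 10.5-fold in the sample channel (3.39 ± 0.38, adjusted p = 0.0177, limma) and 10.2-fold in the reference channel (3.35 ± 0.37, adjusted p = 0.0713, not passed). Apart from control 3, the reference signal of this spot was 5.25% to 6.43% of the sample signal on every array, while the sample signal itself ranged 14-fold. On control 3 it was 13.1%, and the reference signal of this spot was well above background on only 2 of the 3 controls. The share was not as even at Dsc2 probe A_52_P252931, where it was 2.74% and 2.38% on controls 1 and 2, 12.1% on control 3 and 0.98% to 1.09% on mutants. The reference signal of that probe was well above background on no control, and all these shares are of signals before background subtraction.

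**Figure D4:**
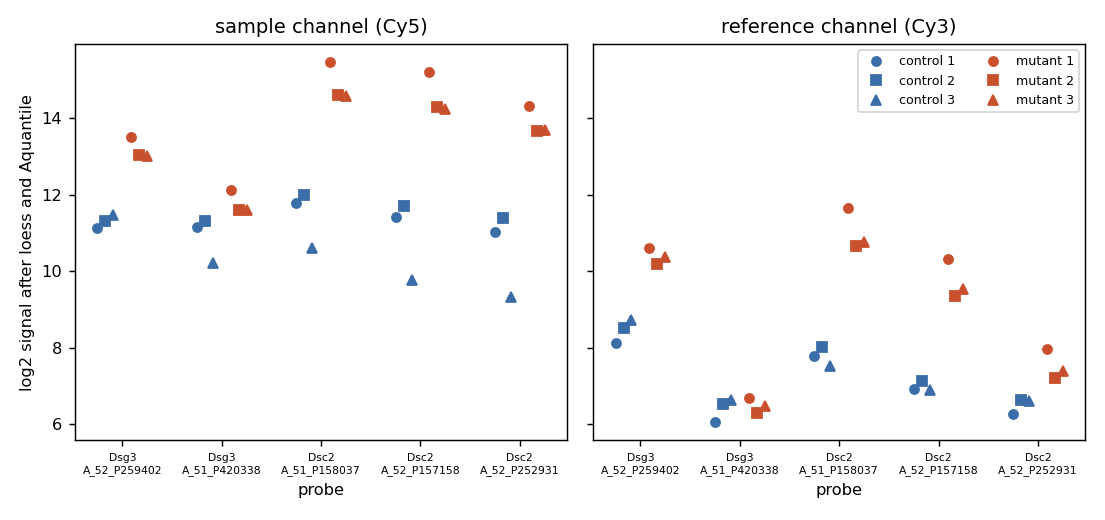
Log2 signal of each array in the sample channel (left) and the reference channel (right) after loess and Aquantile normalization, for the 2 Dsg3 and 3 Dsc2 probes, with controls in blue and mutants in orange. The mutants lie above the controls at all 5 probes on the left, and on the right at 4 of them, all but Dsg3 A_51_P420338.

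In the sample channel alone, 2 of the 10 members passed, Dsg3 and Dsc2, both higher, against 307 of all genes (1.51%). In the reference channel alone 1 member passed, Dsg3, against 14 genes (0.0691%). Without control 3, the sample channel called 3 members, Jup (1.56-fold, adjusted p = 0.0491, limma), Dsg3 (4.06-fold) and Dsc2 (8.56-fold), against 7.44% of genes. The reference channel then called 4 members against 2.3% of genes: Dsp (1.28-fold), Pkp3 (1.37-fold), Dsg3 (4.09-fold) and Dsc2 (8.18-fold). After loess and Aquantile, the groups did not overlap in the sample channel for 3 members (Dsg3 and Dsc2 higher, Perp lower by this scaling; 35.4% of genes) and in the reference channel for 6 (Pkp1, Pkp3, Dsg2, Dsg3, Dsc2 and Perp, all higher; 24.6% of genes). The sample-channel calls depended on how arrays were combined: over 10 other fits the difference stayed at 2.76 to 3.71 log2 units for Dsc2 and 1.69 to 2.02 for Dsg3, with adjusted p under 0.05 in 4 and 3 of them. With slide as a random block the adjusted p was 0.7 and 0.876. The reference-channel difference of Dsg3 stayed at 1.88 to 2.08 over the same 10 fits and passed in 3 of them, with an adjusted p of 0.75 with the near-identical pairs averaged and 1 with slide as a random block.

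Other probes of these 2 genes did not all carry the same ratio. In the sample channel the 3 Dsc2 probes differed 10.5-, 11.4- and 8.75-fold, all higher and all passed (adjusted p = 0.0187, 0.0268 and 0.0274 over probes, limma, where 0.603% of probes passed as higher). In the reference channel they differed 10.2-, 7.49- and 2.38-fold. Their ratios accordingly differed by 0.19, 0.88 and 2.31 log2 units. At the last probe, A_52_P252931, every mutant was above every control in the ratio (4.75, 4.75 and 2.72 against 6.36, 6.47 and 6.31) without passing the test (adjusted p = 0.0795, limma), and its reference signal was well above background on the 3 mutants but on no control. The second Dsg3 probe, A_51_P420338, was higher in mutants 1.6-fold in the sample channel (adjusted p = 0.194, limma) and 1.31-fold in the reference channel (adjusted p = 0.588). Its reference signal was also well above background on the 3 mutants but on no control. Its ratio differed by 0.81 ± 0.39 log2 units without passing (adjusted p = 0.264, limma), or by 0.35 without control 3. For Dsg3, the 3.68-fold sample difference therefore rests on 1 of 2 probes.

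**Figure D5:**
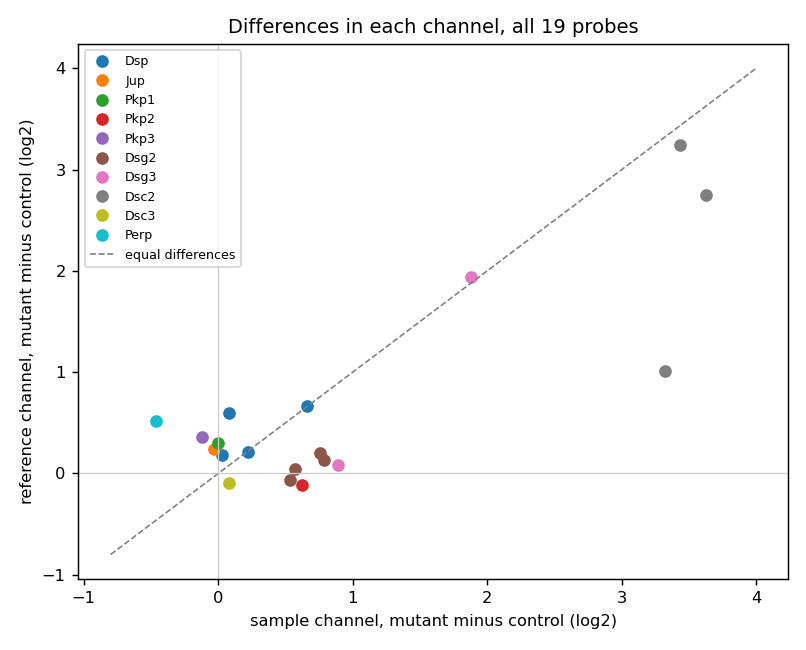
Mutant minus control difference in the sample channel (x axis) and in that of the reference (y axis), in log2 units after loess and Aquantile, one point per probe and one colour per gene; on the dashed line the ratio does not differ. The Dsg3 probe A_52_P259402 and the Dsc2 probe A_51_P158037 lie near the line at high values, and the other 2 Dsc2 probes lie below it.

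At Dsp probe A_52_P549815 both signals also lay apart between the groups, but neither channel passed the test (adjusted p = 0.271 for the sample and 0.0975 for the reference, limma over probes). Its sample signal was 3433, 3238 and 1988 in controls and 6819, 6342 and 6762 in mutants. Its reference signal was 167 and 139 on controls 1 and 2, lower still on control 3, and 322, 285 and 315 on mutants. The differences were 1.58-fold in the sample and 1.59-fold in the reference after Aquantile, and the ratio differed by -0.01; among genes the groups lay apart in 35.4% in the sample and 24.6% in the reference channel. The 4 Dsg2 probes differed by 0.53 to 0.79 log2 units in the sample signal and by -0.06 to 0.20 in the reference signal, and without control 3 the sample values were -0.17 to 0.19.

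Reference signals that differ so much between groups were rare on these arrays. Over 20276 genes the reference difference between groups was -0.37 to 0.35 log2 units from the 5th to the 95th percentile, and 0.498% of genes differed by over 1 unit. Among the 72 genes higher by 3 units or more in the sample channel, Dsc2 among them, the median reference difference was 1.01, against -0.02 for the 18589 genes within 1 unit. For the 21 genes lower by more than 3 units in the sample channel the median reference difference was -0.95. Krt6b, a keratin of activated squamous epithelium whose probe may also read its near copy Krt6a, was higher by 6.41 log2 units in the sample channel (adjusted p = 0.00987, limma) and by 5.97 in that of the reference (adjusted p = 0.0158), and its ratio differed by 0.36 ± 0.53 (adjusted p = 0.701). The channels were each normalized by quantiles and the ratio by loess, so the difference of the channel values is close to the ratio but not equal to it. What moved the reference signal was not tested, and no dyes were swapped.

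Perp, a membrane protein that stratified epithelia need for stable desmosomes, had saturated spots, which no other member had. Its ratio read 6.15, 6.12 and 7.60 in controls and 5.76, 5.87 and 5.31 in mutants. Every mutant lay below every control, yet the difference of -0.98 ± 0.42 (95% interval -2.0 to 0.04) did not pass (adjusted p = 0.223, limma; exact permutation p = 0.1). It was -0.49 without control 3. The sample signal was saturated on mutants 2 and 3 (777506 and 765637 units) and on no control (519402 to 739476), so the mutant signals and ratios there are lower limits and the size of the difference is not settled. With the saturated spots left out, which leaves mutant 1 alone in its group and assumes that it varies like the controls, it was -0.86 ± 0.68 (adjusted p = 0.491, limma). Its reference signal was 7411, 6906 and 3331 in controls and 9817, 9147 and 12554 in mutants, higher on every mutant. In the sample channel alone Perp differed by 0.04 ± 0.13 (adjusted p = 0.871, limma).

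Further genes of the junction and its partners were tested in lists. Of the 8 other desmosomal genes tested, 0 passed and 2 had a positive difference. The median ratio difference was -0.39, or -0.31 without control 3, and Dsg4 did not pass the filter. Dsg1a, a desmoglein of the upper squamous layers with near-identical copies that its probe may also read, was 5.77 ± 0.04 in controls and 3.38 ± 1.29 in mutants (SD, n = 3 each; difference -2.39 ± 0.60, adjusted p = 0.094, limma). The plakins envoplakin and periplakin, which form the scaffold of the cornified envelope, differed by -0.73 ± 0.25 (Evpl) and -0.62 ± 0.27 (Ppl). Kazn, encoding kazrin, which binds periplakin, differed by -0.50 ± 0.17, and none of these passed the test. Control 3 lay above the mean of controls 1 and 2 by 0.83 for Evpl, 0.91 for Ppl and 0.45 for Kazn. In the sample channel Dsg1a, Evpl, Ppl and Kazn differed by -3.09, -0.35, -0.28 and -0.84. In the reference channel they differed by -0.44, 0.07, 0.21 and -0.36, and none passed in either channel.

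Of 15 adherens junction genes 0 passed, with a median of 0.07. The smallest p-values were those of Nectin2 (-0.61 ± 0.16), Nectin1 (-0.40 ± 0.12), E-cadherin (Cdh1, -0.91 ± 0.30) and vinculin (Vcl, 0.35 ± 0.14). In this order they differed by -0.71, -0.30, -0.10 and 0.39 in the sample channel. In the reference channel they differed by -0.11, 0.06, 0.66 and 0.05, and none passed in either channel. Of 14 keratin partners 0 passed in the ratio, with a median of -0.10, and 1 passed in the sample channel, Krt6b. The basal keratins Krt15 (-0.56 ± 0.13), Krt14 (-0.58 ± 0.21) and Krt5 (-0.42 ± 0.16) and the suprabasal Krt1 (-1.05 ± 0.54) led that list by the p-value of the ratio. The list's median was higher in mutants by 0.54 in the sample channel and by 0.45 in the reference channel. In the sample channel Krt5 differed by 0.30, Krt15 by -1.38 and Krt1 by -0.22, none of them past the test. The sample and reference channels of Krt14 differed by 0.95 and 1.22, and neither passed (adjusted p = 0.145 and 0.195, limma). Of 9 regulators tested 0 passed, with a median of -0.34. The leading ones were the kinase Prkca (0.49 ± 0.12), the receptor Egfr (-0.45 ± 0.11), the differentiation factor Klf4 (-0.75 ± 0.21) and the sheddase Adam17 (0.55 ± 0.17). In this order they differed by 0.51, -0.42, -0.07 and 0.78 in the sample channel. In the reference channel they differed by -0.08, 0.02, 0.41 and 0.23, and none passed in either channel.

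Cell type markers gave the setting of these values. Of the 10 squamous markers 0 passed, with a median of -0.57, and Krt15, Sbsn (-1.04 ± 0.31), Lgals7 (-0.64 ± 0.22) and Krt14 had the smallest p-values. Of the 17 glandular markers 0 passed, with a median of 0.46, or -0.63 without control 3; Chga (-0.63 ± 0.19), Krt20 (2.87 ± 1.42), Gkn3 (1.11 ± 0.96) and Tff2 (0.73 ± 0.78) led it. Of the 10 fibroblast, muscle and vessel markers 0 passed, with a median of 0.17, or -0.17 without control 3, led by Myh11 (-0.40 ± 0.18), Col1a2 (0.83 ± 0.38), Pecam1 (0.23 ± 0.17) and Col3a1 (0.77 ± 0.62). Of the 7 immune markers 2 rose, the macrophage genes Cd68 (2.81-fold, adjusted p = 0.0164, limma) and Csf1r (1.68-fold, adjusted p = 0.0483), where 1.43% of all genes rose, and the list's median was 0.75; Lyz2 (1.36 ± 0.52) did not pass. The part of these cells in the desmosome values was not tested.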

How the data were processed

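The deposited scanner files hold spot intensity values in both channels (mean signal, local background median, processed signal), written by Agilent Feature Extraction 10.5.1.1, or 10.7.3.1 for control 3, per the file headers; the submitters' processing notes name 9.1. The headers give build mm9. The authors also deposited a table of log2 ratios, whose normalization and centring are not given in the sources used here. Against the scanner files it ran on a log2 scale as sample over reference (slopes 0.978 to 1.17), with column medians of 0.052, 0.060 and 0.026 in controls and 0.042, 0.043 and 0.039 in mutants. The columns of mutants 1 and 3 each correlated best with the other's scanner file (r = 0.973 and 0.969, against 0.886 and 0.881 with their own); the numbers here follow the scanner files.

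Signals were corrected by normexp (offset 50) and loess in limma 3.58.1 (R 4.3.3), with control and outlier spots at weight 0 and then left out. A probe entered if its sample channel was well above background on at least 3 arrays, and the brightest probe in the mean sample channel stood for its gene. Of 41174 probes, 33068 (80.3%) were named through RefSeq (GRCm38.p6) and 272 had no gene name. Groups were compared by lmFit and eBayes, two-sided, with Benjamini-Hochberg adjustment over all genes, or over all probes for probe values; the number of arrays limits the precision, with 4 residual degrees of freedom. Single channels were described after loess and Aquantile and tested after quantile normalization of each channel. The code was tested on simulated data. Same-numbered arrays were not treated as paired. Their deviations correlated with r = 0.00391, 0.0222 and 0.124, which cannot show whether the mice were matched.

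The members, lists and alternatives were chosen with earlier results of these data known. All 10 members with every probe, Sox2 and up to 4 genes with the smallest p of each list are named; Krt6b is named besides as the only keratin past the threshold in the sample channel, and was chosen after its values were seen. The lists cover other desmosomal genes, adherens junctions, keratins, regulators and 4 cell type marker sets; Grhl3, a regulator, was not analysed here, and the values of 1 immune marker are not reported here.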

Additional observations from a re-analysis of the deposited data

How the results depend on the processing

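Over 24 alternative settings, 0 members passed except as follows: 2 (Dsg3 and Dsc2) in the sample channel alone and 1 (Dsg2) without control 3 and mutant 1. In alternatives added after seeing the data, 1 passed in the reference channel alone and, without control 3, 4 in the reference and 3 in the sample channel. Genes called, 587 in all, were 332 from the scanner software's processed signals, 272 with the array median in place of loess, 307 in the sample channel, 14 in the reference channel, 1508 in the sample channel without control 3, 7932 with array weights, 4 with slide as a random block, 1476 with scan day as a block, and 42 to 1476 leaving out 1 array. Without control 3 and mutant 1 they were 7637. With the near-identical pairs averaged, limma called 0 genes, where 2162 genes and 0 members had an unadjusted p under 0.05. With the replicate block 137 genes and 0 members were called, and whether same numbers mark matched mice is not known. The members' median difference was -0.38 from the processed signals, 0.28 after scaling to one spread and 0.22 in the sample channel.

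Signs changed with the setting; of the values below only Dsg3 and Dsc2 in the sample channel and Dsg2 without control 3 and mutant 1 passed. Processed signals gave Dsc2 -0.58 and Dsc3 -0.44, offset 16 gave Dsc2 -0.08, the array median Dsg3 0.04, and the deposited table Dsc2 -0.34. Scaling gave Dsp 0.45, Pkp1 0.05 and Dsg3 0.20, and the mean over probes Dsg3 0.38; that mean moved Dsc2 from 0.19 to 1.12 (adjusted p = 0.176, limma) without a change of sign. The sample channel gave Dsp 0.21, Pkp1 0.24, Pkp3 0.01, Perp 0.04, Dsc3 -0.17 and Dsg3 1.88, and Dsc2 3.39 with its sign kept. Array weights, with a weight of 0.0948 for control 3, gave Jup 0.00, Pkp2 -0.24, Dsg2 -0.23, Dsc2 -0.08 and Dsc3 -0.03. Scan day as a block and leaving out control 3 are the same contrast here and gave Jup 0.00, Pkp1 0.00, Pkp2 -0.38, Dsg2 -0.35, Dsc2 -0.11 and Dsc3 -0.02. Without control 1 or without mutant 3, Dsg3 was 0.02. Leaving out 1 array gave Jup -0.45 to 0.00, Pkp1 -0.46 to 0.00, Pkp2 -0.38 to 1.35, Dsg2 -0.35 to 1.03, Dsc2 -0.11 to 0.35 and Dsc3 -0.02 to 0.29. Without control 3 and mutant 1 the values were Jup 0.03, Pkp2 -0.29, Dsg2 -0.29, Dsc2 -0.09 and Dsc3 -0.04. The causes were not tested. Dim probes limit Dsc3 and 3 of the Dsg2 probes, and the reference signal is at background for several Dsc2, Dsg2 and Dsg3 spots.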
